A study of Mus musculus with 6 samples.

Results

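Intracellular serpins that inhibit granzymes and cathepsins were examined in peripheral T-cell lymphoma (PTCL) of Dnmt3b+/- mice. The 7 members were taken by gene symbol: Serpinb1a, Serpinb6a, Serpinb6b, Serpinb9, Serpinb9b, Serpina3f and Serpina3g. All 7 were found among the 34197 gene symbols of the expression table. RNA-seq had been performed on lymph nodes from 3 tumor-bearing FVB/N mice with germline loss of 1 Dnmt3b allele, here called tumors 1, 2 and 3. The age of each mouse was not given in the labels, and methylation libraries of Dnmt3b+/- and Dnmt3a-/- tumors were not analysed here. The labels give a single RNA-seq group, so levels were compared between tumors and with all other genes, without a test between groups.

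Serpins are protease inhibitors that present a reactive loop to their target, are cleaved by it and trap the enzyme in a covalent complex. Clade B serpins lack a classical secretion signal and act inside the cell, where they guard cytotoxic lymphocytes and phagocytes against proteases that leak from their own granules and lysosomes. The Serpina3 genes of the mouse are a set of duplicated copies, of which Serpina3g encodes an inhibitor of cysteine cathepsins in T cells.

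Values were FPKM, that is reads scaled by exon length and by the depth of the library. Whole reads could be recovered from them, and the depths were 30726570, 18969988 and 20770928 reads for tumors 1, 2 and 3. Intervals given below are 95% exact intervals on these reads and cover counting error only. The T-cell identity of the samples was seen in all 3 tumors: all 9 T-cell markers were at 1 FPKM or above in every tumor, with summed levels of 1326, 1085 and 1432 FPKM in tumors 1, 2 and 3, and Cd8b1 was the most abundant (mean 348 FPKM). A ratio of at least 2 between tumors was reached by 3 of 9 markers, a share close to that of all genes with a mean of at least 1 FPKM (34.4%). The 3 were Cd4 (28.4, 4.28 and 8.22 FPKM), Cd8a (259, 122 and 218 FPKM) and Cd8b1 (435, 166 and 443 FPKM).

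Serpinb9, the inhibitor of granzyme B, had the highest mean of the members. It lies on chromosome 13 (mm10, chr13:33003250-33017957, plus strand) and was measured at 16.0, 11.9 and 9.73 FPKM in tumors 1, 2 and 3. Tumor 1 was the highest and tumor 3 the lowest, a ratio of 1.65 (interval 1.51 to 1.80), and 48.1% of genes with a mean of at least 1 FPKM had a smaller ratio between their highest and lowest tumor. Its mean was 12.6 ± 3.19 FPKM (SD, n = 3), which placed it above 92.0% of all genes.

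Serpinb6b, an inhibitor of granzyme A, lies beside Serpinb9 (chr13:32965209-32979067, plus strand), with 24182 bases between the annotated ends of both genes. Its level was 16.5, 7.55 and 9.24 FPKM in tumors 1, 2 and 3. Tumor 1 stood above tumors 2 and 3, and its ratio to tumor 2 was 2.19 (interval 1.94 to 2.49). The mean was 11.1 ± 4.78 FPKM (SD, n = 3). Serpinb6b and Serpinb9 changed places between tumors, with Serpinb9 the higher in 2 of 3, so that their order did not hold beyond the spread between tumors.

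Serpinb6a, a close relative of Serpinb6b that inhibits cathepsin G and related serine proteases, lies at the far end of the same cluster (chr13:33917918-34002794, minus strand). It was found at 5.20, 2.83 and 2.88 FPKM in tumors 1, 2 and 3. Tumors 2 and 3 did not differ beyond counting error (ratio of tumor 2 to tumor 3 of 0.980, interval 0.834 to 1.15), while tumor 1 was 1.84 times tumor 2 (interval 1.61 to 2.11). The ratio of Serpinb6b to Serpinb6a, both per kilobase, was 3.18, 2.67 and 3.20 in tumors 1, 2 and 3. Part of its exons, 14.1% of the bases, overlapped Nqo2 on the other strand, 10.8% overlapped 1110046J04Rik and 4.46% overlapped Ripk1. Of the 50-base windows of its transcripts, 25.1% occurred in another gene (19.9% of the 100-base windows), with Nqo2 the most frequent. Nqo2 was at 1.53, 0.978 and 1.16 FPKM and Ripk1, above Serpinb6a in level, at 7.56, 5.91 and 6.92 FPKM, and whether reads were counted by strand is not given in the sources used here.

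Serpinb1a, which inhibits neutrophil elastase, proteinase 3 and cathepsin G, was lower (chr13:32842092-32851185, minus strand). It was measured at 3.70, 0.916 and 2.20 FPKM in tumors 1, 2 and 3. All tumors differed from each other beyond counting error, and tumor 1 was 4.04 times tumor 2 (interval 2.89 to 5.79). The genes of these 3 proteases were close to absent from the same libraries: Elane had no read in any tumor, Prtn3 had 10 reads in tumor 1 alone and Ctsg had 3 reads in tumor 1 alone. The list of neutrophil and mast cell serine proteases held 3 further genes, Mcpt4, Cma1 and Tpsb2. Their means were at least 1 FPKM and all 3 were highest in tumor 1 (504, 228 and 292 reads), as were 50.6% of genes at that level.

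Serpinb9b, a copy of Serpinb9 that starts 9458 bases after its end, was barely detected (chr13:33027416-33041884, plus strand). It had 15 reads in tumor 1 (0.146 FPKM, interval 0.0815 to 0.240), no read in tumor 2, for which 3 reads would be 0.0472 FPKM, and 2 reads in tumor 3 (0.0287 FPKM, interval 0.00348 to 0.104). Set against the level of 3 reads, tumor 1 was at least 3.09-fold higher than tumor 2, and the exact lower limit of this ratio, which also covers the error of the 15 reads, was 2.21, while tumors 2 and 3 could not be told apart at this depth. Serpinb9 and Serpinb9b shared 86.0% of aligned coding bases, but only 0.378% of the 50-base windows of Serpinb9 transcripts occurred in transcripts of another gene. For Serpinb9b itself the share was 5.38% at 50 bases and 1.91% at 100 bases, mostly with Gm36099. That gene overlapped 8.30% of the exon bases of Serpinb9b on the other strand.

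Serpina3g, the cathepsin inhibitor also known as Spi2A, varied far more between tumors than the granzyme inhibitors. It lies on chromosome 12 (chr12:104236245-104241939, plus strand) and was at 16.3, 1.75 and 2.54 FPKM in tumors 1, 2 and 3. Tumor 1 held 79.2% of its summed level, and was 9.30 times tumor 2 (interval 7.29 to 12.02) and 6.42 times tumor 3 (interval 5.27 to 7.88). Its mean of 6.86 ± 8.18 FPKM (SD, n = 3) was set by tumor 1, since without it the mean was 2.15 FPKM.

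Serpina3f, the neighbouring copy, showed the same order of tumors (chr12:104214544-104221129, plus strand). Its level was 7.23, 0.622 and 1.32 FPKM in tumors 1, 2 and 3. Tumor 1 was high and the other tumors were low, with a ratio of 11.6 between tumors 1 and 2 (interval 7.90 to 17.8) and a mean of 0.973 FPKM without tumor 1 against 3.06 ± 3.63 (SD, n = 3) with it. Within each tumor Serpina3g was 2.25, 2.82 and 1.92 times Serpina3f per kilobase in tumors 1, 2 and 3. Their coding sequences were 87.4% identical over 747 aligned bases, and 10.6% of the 50-base windows of Serpina3f and 15.5% of those of Serpina3g occurred in another gene. At 100 bases these shares were 3.40% and 3.49%.

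**Figure D1:**
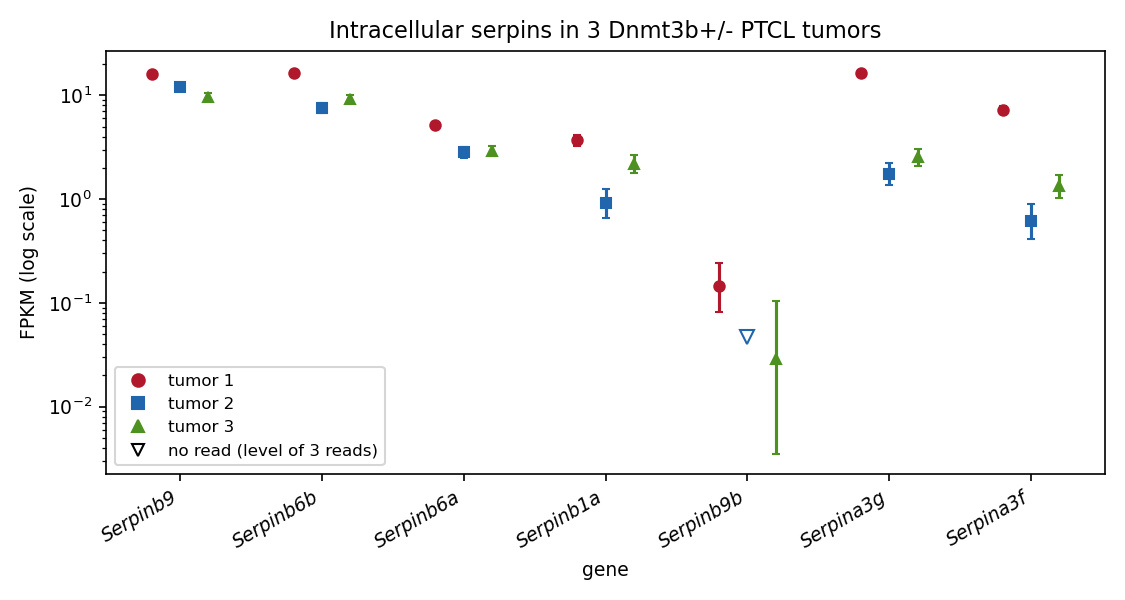
FPKM on a log axis for each of the 7 serpins in tumors 1, 2 and 3, with bars for the 95% exact Poisson interval of the reads and an open triangle at the level of 3 reads where a tumor had no read. Serpina3g and Serpina3f were high in tumor 1 (16.3 and 7.23 FPKM) and low in the other tumors, while Serpinb9 lay between 9.73 and 16.0 FPKM in all of them.

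Ordered by mean, the members ran from Serpinb9 over Serpinb6b, Serpina3g, Serpinb6a (3.64 ± 1.36 FPKM, SD, n = 3), Serpina3f and Serpinb1a (2.27 ± 1.40) to Serpinb9b (0.0629 ± 0.0721, and 0.0214 without tumor 1). The ranges over tumors overlapped for each pair of neighbours in this order except the last, where Serpinb9b was below Serpinb1a in 3 of 3 tumors. Serpina3g was above Serpinb6a, and Serpina3f above Serpinb1a, in tumor 1 alone. Summed over the members, the level was 65.1, 25.6 and 27.9 FPKM in tumors 1, 2 and 3. Serpina3f and Serpina3g together made up 36.1%, 9.27% and 13.8% of that sum in tumors 1, 2 and 3.

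A ratio of at least 2 between the highest and the lowest tumor was reached by 5 of 7 members, against 34.4% of the 11190 genes with a mean of at least 1 FPKM. The 5 include Serpinb9b, whose mean lies below that minimum; of the 6 members above it, 4 reached the ratio. The count over all 7 fell to 2 without tumor 1 and to 3 without tumor 2. A ratio of at least 4 was seen for 3 of 7 members and for 11.3% of the genes, but Serpinb1a, one of the 3, was at 3.63 with median-of-ratios scaling, and without tumor 1 the largest ratio was 2.40 (Serpinb1a). Every member was highest in tumor 1 (7 of 7), as were 50.6% of the genes. Serpinb1a, Serpinb6b, Serpina3f and Serpina3g, 4 of the 6 members with a mean of at least 1 FPKM, were lowest in tumor 2 beyond counting error, as were 25.6% of 9939 such genes with whole reads. For Serpinb6b and Serpina3g the upper limit of the ratio of tumor 2 to tumor 3 was 0.946 and 0.940. Neither stayed below tumor 3 beyond counting error when rescaled or scaled to Cd3 genes. Without regard to counting error, 5 of these 6 members and 30.2% of the 11190 genes were highest in tumor 1 and lowest in tumor 2, with Serpinb6a lowest in tumor 3 instead when rescaled or scaled to Cd3 genes. Tumor 1 values were above the others for the median gene too, by 0.15 on the log2 scale against tumor 2 and by 0.20 against tumor 3. With median-of-ratios scaling, which removes this shift, 7 of 7 members and 39.0% of the genes were highest in tumor 1. Serpina3f and Serpina3g also fell among the 1.98% of genes in which tumor 1 was at least 4 times the next tumor.

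**Figure D2:**
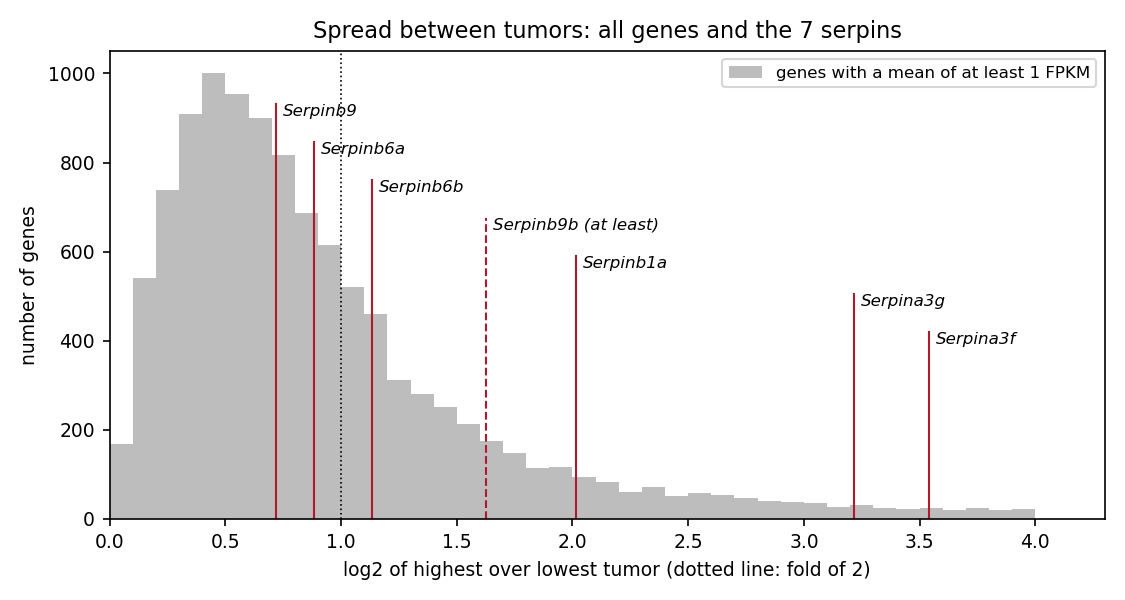
Number of genes by the log2 ratio of the highest to the lowest tumor, for 11190 genes with a mean of at least 1 FPKM (ratios above 16 are not drawn), with a line for each of the 7 serpins, dashed for the lower bound of Serpinb9b. Serpinb9 and Serpinb6a lay below the dotted line at a ratio of 2, and Serpina3g and Serpina3f lay in the right tail at 9.30 and 11.6.

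The high level in tumor 1 was shared by a further copy beside Serpina3f and Serpina3g. The Serpina3 cluster held 10 genes over 302 kb of chromosome 12, of which 3 had at most 3 reads in each tumor. Of the other 7, 5 were highest in tumor 1, the deepest library, as were 50.6% of genes with a mean of at least 1 FPKM. These 5 included Serpina3c (10, 0 and 0 reads in tumors 1, 2 and 3) and Serpina3j (4, 0 and 0 reads). Serpina3i, next to Serpina3g, was at 1.32, 0.0948 and 0.130 FPKM in tumors 1, 2 and 3 (90, 4 and 6 reads), so that it too was high in tumor 1 alone. It shared 15.9% of its 50-base windows and 2.25% of its 100-base windows with other genes, and its coding sequence was 91.1% identical to that of Serpina3f. Its 90 reads in tumor 1 stood beside 1054 of Serpina3g. Serpina3n, at the end of the cluster, had a different pattern, with 6.37 FPKM in tumor 1, 8.10 in tumor 2 and 1 read in tumor 3; tumor 1 was above tumor 2 only when scaled to the summed Cd3d, Cd3e and Cd3g.

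The promoters of the 3 neighbours that were high together in tumor 1 are given from 250 bases before to 50 bases after the RefSeq start (GRCm38.p6, plus strand): Serpina3f at chr12:104214294-104214593, Serpina3g at chr12:104235897-104236196 and Serpina3i at chr12:104262872-104263171. Capitals mark matches, on both strands, to the interferon-gamma activated site TTCNNNGAA, to the interferon regulatory factor core GAAANNGAA, or to the NF-kappaB consensus. The AP-1 motif TGANTCA was searched too and had no match in them.
Serpina3f: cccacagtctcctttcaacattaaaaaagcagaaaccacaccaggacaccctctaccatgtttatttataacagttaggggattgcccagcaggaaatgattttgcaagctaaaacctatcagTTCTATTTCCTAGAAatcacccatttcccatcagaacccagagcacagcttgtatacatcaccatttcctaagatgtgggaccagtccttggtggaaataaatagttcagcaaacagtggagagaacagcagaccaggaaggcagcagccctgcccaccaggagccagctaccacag
Serpina3g: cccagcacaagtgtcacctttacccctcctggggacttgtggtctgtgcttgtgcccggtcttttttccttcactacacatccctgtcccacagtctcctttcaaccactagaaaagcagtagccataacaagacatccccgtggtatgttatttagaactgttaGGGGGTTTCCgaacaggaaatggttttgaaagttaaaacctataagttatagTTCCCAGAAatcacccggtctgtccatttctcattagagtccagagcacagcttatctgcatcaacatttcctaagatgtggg
Serpina3i: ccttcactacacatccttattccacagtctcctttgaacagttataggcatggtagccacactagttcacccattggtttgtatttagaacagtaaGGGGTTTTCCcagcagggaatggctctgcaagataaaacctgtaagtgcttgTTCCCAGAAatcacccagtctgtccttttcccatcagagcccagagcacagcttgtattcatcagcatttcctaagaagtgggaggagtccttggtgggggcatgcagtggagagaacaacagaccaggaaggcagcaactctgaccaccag
Each of these promoters held 1 match to TTCNNNGAA, starting at base -121 in Serpina3f, -33 in Serpina3g and -102 in Serpina3i, counted from the RefSeq start site. The printed Serpina3g sequence ends before the gene start of the expression table (chr12:104236245), while the other printed sequences span theirs. Base positions in Serpina3g thus depend on the start chosen. The match in Serpina3f overlapped a match to GAAANNGAA on the other strand at base -127. Serpina3g and Serpina3i each held 1 NF-kappaB match, at bases -85 and -154. Of the 8 Serpina3 genes with a promoter entry, 3 held TTCNNNGAA and 2 held the NF-kappaB consensus, against 8.30% and 4.51% of 32851 mouse promoters of the same length. Serpina3c and Serpina3j, with reads in tumor 1 alone, held neither. The 3 genes with TTCNNNGAA are neighbouring copies whose coding sequences were 86.3% to 91.1% identical, so their matches are not independent. The shares of mouse promoters count entries rather than genes, so no excess can be read from these counts. Serpina3f had 2 promoter entries, of which the upstream one is printed. It aligned to the Serpina3g promoter over 203 bases with 81.3% identity and 194 gap bases, and the other entry over 287 bases with 42.5% identity and 26 gap bases. The other entry (chr12:104214383-104214682) overlaps the printed one for most of its length. The 2 identities therefore depend on where gaps were placed, and the lower one does not show an unrelated promoter. These motifs were picked after the levels had been seen, the sequences are those of the reference strain and not of FVB/N, and use of the sites was not tested. The promoter of Serpinb9 (chr13:33004291-33004590, plus strand) held 1 match to GAAANNGAA, found in 8.56% of promoters, and those of Serpinb6b and Serpinb9b held none of the 4 motifs searched (TGANTCA was found in 7.81% of promoters). Of the 2 promoter entries of Serpinb6a, 1 held 2 matches to TTCNNNGAA, and each held 1 match to GAAANNGAA.

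The clade B cluster on chromosome 13 held expressed and silent copies side by side. Of its 15 genes, 5 are members and 7 had at most 3 reads in each tumor. Reads were found for 10 of the 15 genes in tumor 1, the deepest library, and for 5 in each of the other tumors. Serpinb9d and Serpinb9e count among the 10 with 2 reads each. Over all genes, 42.3%, 45.9% and 48.3% had no read in tumors 1, 2 and 3. Serpinb9c, a further copy of Serpinb9, was at 1.28 FPKM with 79 reads in tumor 1 and had no read in tumors 2 and 3. The exact lower limits on the ratio of tumor 1 to each of them were 12.9 and 14.1. It shared 18.0% of its 50-base windows and 15.9% of its 100-base windows with Gm11385. Serpinb9f had 19 reads in tumor 1 and none elsewhere. The chromosome 1 cluster of 11 clade B genes held no member, and none of its genes reached a mean of 1 FPKM. Of 21 other clade B serpins found in the table, 12 had no read in any tumor.

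**Figure D3:**
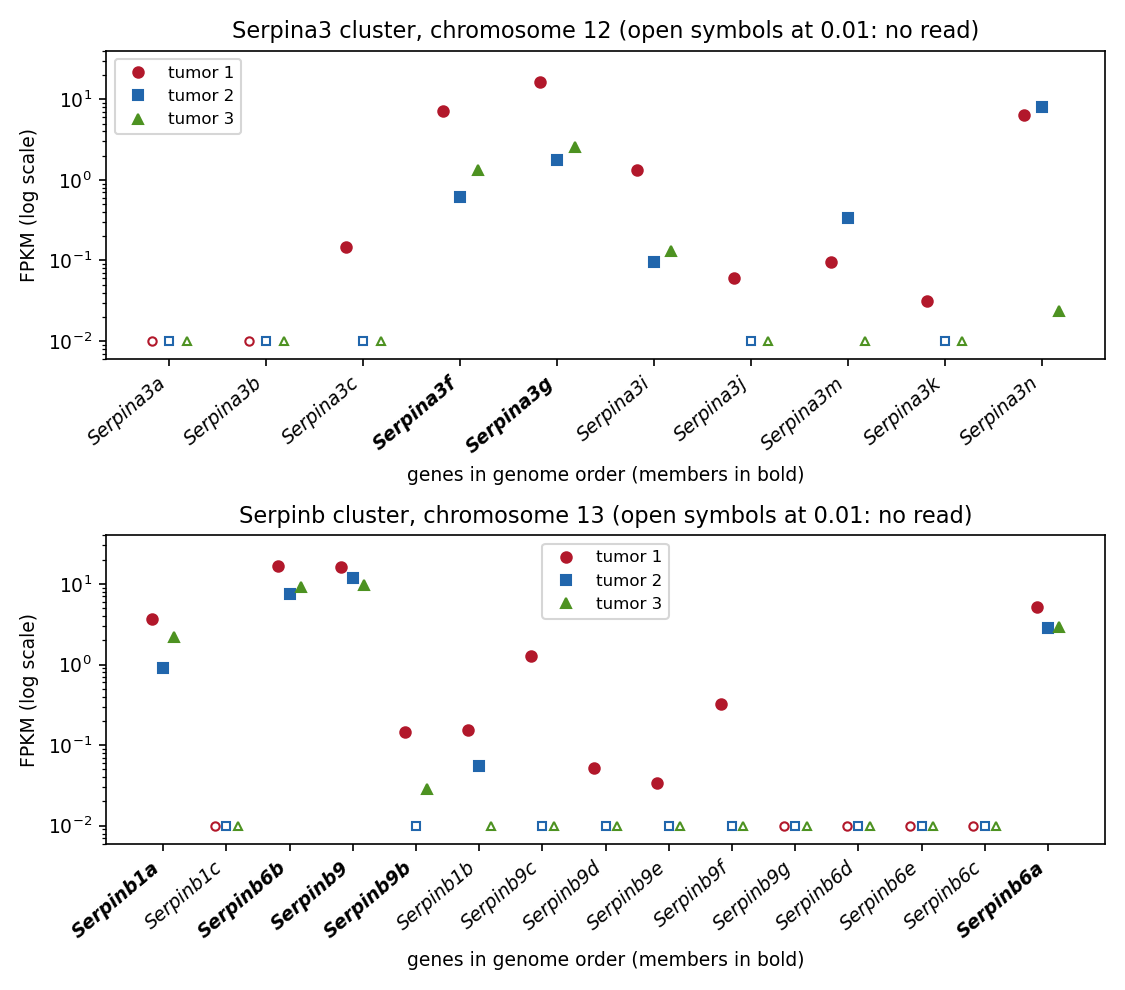
FPKM on a log axis for the genes of the Serpina3 cluster (upper panel) and the chromosome 13 Serpinb cluster (lower panel) in genome order, for tumors 1, 2 and 3, with open symbols for genes without a read. Serpina3f, Serpina3g and Serpina3i were high in tumor 1, and between Serpinb9b and Serpinb6a the reads came almost only from tumor 1.

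RNA levels of granzymes were set beside those of their inhibitors. Protein levels were not examined, and the ratios do not give the amount of inhibitor per protease. Granzyme B (Gzmb) was at 463, 702 and 134 FPKM in tumors 1, 2 and 3. Its level per kilobase was 28.9, 58.8 and 13.8 times that of Serpinb9 in these tumors. Tumor 2 thus had the most Gzmb RNA per Serpinb9 RNA and tumor 3 the least. Granzyme A (Gzma) was at 63.4, 10.6 and 3.59 FPKM in tumors 1, 2 and 3. Serpinb6b was 0.261, 0.710 and 2.57 times Gzma, so Serpinb6b RNA exceeded Gzma RNA in tumor 3 alone. Over the 12 genes of the granzyme and perforin list, 9 had more than 3 reads in a tumor. Of these, tumor 1 held the highest level for 3, tumor 2 for 4 and tumor 3 for 2, under each scaling. Among the 7 list genes with a mean of at least 1 FPKM, 3 were highest in tumor 1. Of all genes at that level, 50.6% were highest in tumor 1 and 33.7% in tumor 2 as deposited.

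Among cysteine cathepsins, cathepsin B (Ctsb) was at 57.5, 45.9 and 18.3 FPKM in tumors 1, 2 and 3. Serpina3g was 0.284, 0.0382 and 0.139 times Ctsb. Cathepsin L (Ctsl) was lower, at 5.65, 2.65 and 0.341 FPKM, and Serpina3g was 2.88, 0.662 and 7.44 times as high. Tumor 2 therefore had the least Serpina3g RNA relative to the RNA of both cathepsins. Of 12 cathepsin genes with a mean of at least 1 FPKM, 10 were highest in tumor 1 (9 with median-of-ratios scaling), against 50.6% (39.0%) of all genes at that level, while the summed level of the 14 cathepsin genes was highest in tumor 2 under each scaling (684.5, 907 and 798 FPKM as deposited). The median ratio between highest and lowest tumor was 2.83 over the 12 cathepsin genes, against 1.68 over all genes at that level. Cathepsin C (Ctsc), which activates granzymes, was at 46.1, 10.3 and 11.0 FPKM, while cathepsin W (Ctsw), a lymphocyte cathepsin, was lowest in tumor 1 (94.4, 359 and 401 FPKM). Of the cystatins, which also inhibit cysteine cathepsins, 4 of 8 had more than 3 reads in a tumor. Cst3 (77.5, 205 and 75.0 FPKM) and Cst7 (60.4, 145 and 108 FPKM) were highest in tumor 2, whereas Cstb (40.8, 28.6 and 22.0 FPKM) and Stfa2l1 (1.49, 0.115 and 0.105 FPKM) were highest in tumor 1, as was Serpina3g.

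**Figure D4:**
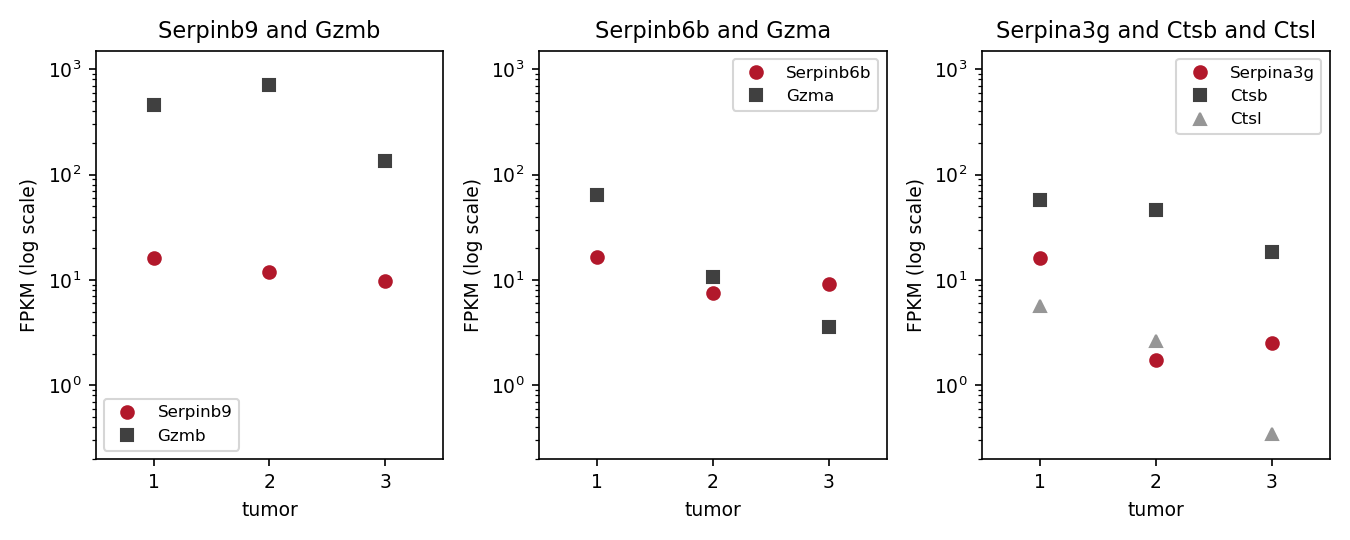
FPKM on a log axis of Serpinb9 with granzyme B (left), Serpinb6b with granzyme A (middle) and Serpina3g with cathepsins B and L (right) in tumors 1, 2 and 3. Granzyme B RNA exceeded Serpinb9 RNA in every tumor, from 13.8 to 58.8 times, whereas Serpinb6b RNA exceeded granzyme A RNA in tumor 3 only.

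Genes with the most similar pattern over the 3 tumors were sought among genes with a mean of at least 5 FPKM, by the root mean square difference of centred log2 FPKM. For Serpina3g these were Tmem64 (0.082) and Iigp1 (0.14), an interferon-inducible GTPase at 50.9, 5.25 and 6.34 FPKM. For Serpina3f they were Slc35g1 (0.079) and Itga4 (0.12). Only 1 gene lay within 0.1 of each of these serpins. The granzyme inhibitors had common patterns, with 212 genes within 0.1 of Serpinb9, the nearest being CT025531.1 (0.0049) and Etv3 (0.0061), and 149 within 0.1 of Serpinb6b, the nearest being Rfc4 (0.015) and Ythdf3 (0.017). Serpinb6a had 201 such genes, with Srsf1 (0.0038) and Rsrc2 (0.0094) nearest, and Serpinb1a had 7, with 1810022K09Rik (0.016) and Cd2ap (0.031) nearest. Serpina3f and Serpina3g differed from each other by 0.23, and Serpinb6a and Serpinb6b by 0.12.

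Of 14 interferon gamma response genes, 6 were highest in tumor 1 and 8 in tumor 2 as deposited, but 8 and 6 after each tumor was rescaled to the same sum or to Cd3 genes, and 5 and 8 with median-of-ratios scaling, which also put the summed level of tumor 2 above tumor 1, with deposited sums of 697, 667 and 372 FPKM in tumors 1, 2 and 3. Gbp2 (140, 58.7 and 29.0 FPKM) and Cxcl9 (37.8, 1.77 and 0.447 FPKM) were highest in tumor 1, as was Serpina3g. All 10 type I interferon response genes were highest in tumor 2, against 33.7% of genes with a mean of at least 1 FPKM, with summed levels of 105, 808 and 277 FPKM. The 5 caspases of the list, which include substrates of granzyme B, were all highest in tumor 1 as deposited, as were 50.6% of genes with a mean of at least 1 FPKM, but only 4 of 5 with median-of-ratios scaling (39.0% of genes), where Casp8 was highest in tumor 2. Casp1 (15.4, 1.76 and 3.38 FPKM) had the same order of tumors as Serpina3f and Serpina3g.

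Markers of other cell types also differed between the tumors in which the serpins differed. In bulk tissue, fewer cells of a type and less RNA per cell cannot be told apart. Of 9 macrophage and monocyte markers, 8 were highest in tumor 1, against 50.6% of genes with a mean of at least 1 FPKM, with summed levels of 437, 148 and 37.2 FPKM in tumors 1, 2 and 3 and Lyz2 the most abundant (mean 89.5 FPKM). The sum was lowest in tumor 3, as was each of the 9 markers except Itgam (2.58, 0.562 and 0.664 FPKM). Serpina3f, Serpina3g, Serpinb1a and Serpinb6b were lowest in tumor 2 as deposited. For Serpina3g and Serpinb6b this did not hold beyond counting error when rescaled or scaled to Cd3 genes. Serpinb9 had the same order as the macrophage and monocyte sum (16.0, 11.9 and 9.73 FPKM in tumors 1, 2 and 3). Serpinb6a and Serpinb9b did not differ between tumors 2 and 3 beyond counting error. The 8 neutrophil markers summed to 37.7, 1.54 and 16.2 FPKM, led by S100a9 (mean 11.4 FPKM), with no Elane read and at most 1 read of Mpo or Ly6g in any tumor. The 3 mast cell markers summed to 9.42, 0.716 and 1.75 FPKM, led by Cpa3 (mean 2.99 FPKM), and the mast cell protease Mcpt4 was at 14.8, 0.0479 and 1.36 FPKM. The sums of these 2 lists were lowest in tumor 2. The 4 plasma cell markers summed to 862, 199 and 217 FPKM, a sum carried by Jchain (mean 393 FPKM). Jchain and Xbp1 (36.3, 11.1 and 11.3 FPKM) were highest in tumor 1. The other markers, Mzb1 (11.0, 2.62 and 25.8 FPKM) and Sdc1, were highest in tumor 3, Sdc1 in tumor 1 instead when rescaled or scaled to Cd3 genes. The part of these cell types in the levels of the serpins was not tested.

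Markers that followed other orders were those of B cells (56.2, 13.7 and 104 FPKM over 5 genes, led by Cd79a), NK cells (57.9, 110 and 73.7 FPKM over 4 genes, led by Klrd1), and fibroblasts and stroma (10.5, 42.6 and 0.353 FPKM over 6 genes, led by Col1a1). Pancreatic acinar markers summed to 70.5, 386 and 0.603 FPKM over 6 genes, led by Ctrb1, with the highest level in tumor 2. Dendritic cell markers summed to 11.1, 6.92 and 4.03 FPKM over 6 genes, led by Itgax, endothelial markers to 13.5, 12.9 and 5.10 FPKM over 4 genes (tumor 2 above tumor 1 with median-of-ratios scaling), led by Pecam1, and epithelial markers to 14.2, 2.75 and 0.913 FPKM over 4 genes. Cdh1 (13.7, 0.934 and 0.410 FPKM) carried the epithelial sum and was the only epithelial marker with a mean of at least 1 FPKM. Of the 4 epithelial markers, 3 were highest in tumor 2, as were 33.7% of all genes with a mean of at least 1 FPKM. Relative to the summed Cd3d, Cd3e and Cd3g of each tumor, a scaling chosen after the data had been seen, the ratio between highest and lowest tumor was 2.28 for Serpinb9, 12.1 for Serpina3g and 15.1 for Serpina3f, and 7 of 7 members were highest in tumor 1, as were 71.5% of all genes with a mean of at least 1 FPKM.

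**Figure D5:**
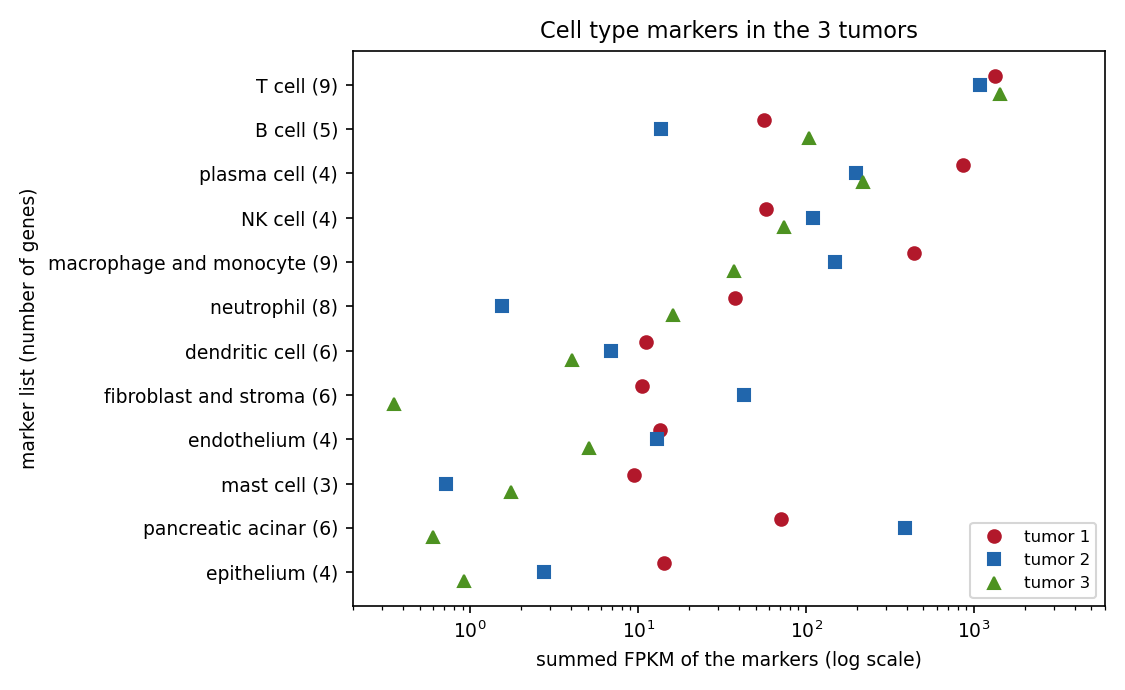
Summed FPKM on a log axis of the markers of 12 cell types in tumors 1, 2 and 3, with the number of genes in each list. T-cell markers summed to between 1085 and 1432 FPKM, and macrophage and monocyte markers were highest in tumor 1 (437 FPKM).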

How the data were processed

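RNA-seq of lymph nodes from 3 Dnmt3b+/- mice with PTCL was used; the 3 tumors are separate samples per the labels. The FPKM values were made by the authors, who mapped trimmed read pairs with STAR (mm10) and then summarised genes in SeqMonk from alignments of mapping quality 50 or more. The submitters' processing notes also name MethylDackel 0.3.0.1 and DESeq2, whose output was not used here. In the deposited FPKM a gene without a read held the value of 0.9 read. Reads were recovered with GENCODE M21 merged exon lengths: 93.7%, 93.3% and 93.4% of genes in tumors 1, 2 and 3 gave whole reads (within 0.02 read) or no read, and all values of the 7 members did. Recovery and ratios were tested on simulated data.

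The software was SciPy 1.17.1 and NumPy 2.4.6 for intervals, pandas 2.3.3 for tables and matplotlib 3.10.9 for plots, under Python 3.11. Ratios had exact binomial 95% intervals; where a tumor had no read, the ratio was taken against 3 reads as a lower bound. A symbol found more than once kept its row of highest mean. Genes named from each list were at 10 FPKM or above in a tumor or among the 3 of highest mean, with exceptions given below. Not every gene that met this was named. The 2 nearest patterns were named for each member with a mean of at least 1 FPKM. Further list genes (Ctsl, Elane, Prtn3, Ctsg, Mpo, Ly6g, Sdc1, Stfa2l1, Serpinb9d, Serpinb9e) and the neighbours were chosen after their values were seen. So were the counts of list genes under each scaling and the share of genes lowest in tumor 2 beyond counting error. The members and lists were chosen with earlier results of these data known. Promoters were from RefSeq (GRCm38.p6): 6 of the 7 members had an entry. The effect of strain differences on mapping was not tested.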

Additional observations from a re-analysis of the deposited data

How the results depend on the processing

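No paired analysis was possible because all results come from 1 group with no test. Rescaling each tumor to a sum of 1000000 changed the unit, and by that construction raised every mean: Serpinb1a 11.3, Serpinb6a 18.0, Serpinb6b 55.1, Serpinb9 62.0, Serpinb9b 0.323, Serpina3f 15.8, Serpina3g 35.4 and the sum of the members 197.9. With median-of-ratios factors (1.08, 0.972 and 0.9496 in tumors 1, 2 and 3) each mean moved by less than 1 SD. With a tumor left out the mean ranged from 0.0214 to 0.0872 FPKM for Serpinb9b, from 0.973 to 4.28 for Serpina3f, from 2.15 to 9.42 for Serpina3g and from 26.8 to 46.5 for the sum of the members. The number of members with a ratio of at least 2 was 5 as reported and between 2 and 5 with a tumor left out. It was 4 with median-of-ratios factors, 6 after rescaling, 7 when divided by summed Cd3d, Cd3e and Cd3g, 4 with 0.1 or 1 added to each FPKM, 7 at a threshold of 1.5 and 4 at a threshold of 3. All 7 members were highest in tumor 1 under each scaling and without tumor 2 or 3; without tumor 1 this count has no value. The share of all genes with a ratio of at least 2 ranged from 23.6% (1 added to each FPKM) to 42.8% (mean of at least 0.2 FPKM). Adding 1 to each FPKM lowered the ratio of Serpina3f to 5.08 and of Serpina3g to 6.28. Depth limits Serpinb9b, with 15, 0 and 2 reads, and Serpina3f in tumor 2, with 27 reads.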
